A study of Mus musculus with 20 samples.

Results

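The genes for hepcidin and for proteins that import, store, export or sense iron were described in mouse atrial appendages. Members were chosen by annotated symbol: all probes of Hamp, Hamp2, Scara5, Tfrc, Slc40a1, Fth1, Hfe, Tmprss6 and Slc11a2, which made 17 probes for 9 genes out of 45281 probes and 19057 named genes on the array. Of these, 14 probes were tested, with at least 1 for each gene. The study compared left (LA) and right (RA) atrial appendages of 12-week-old CD1 mice, an outbred strain, that were heterozygous for a mutant allele or were wild-type littermates. The labels give neither the nature of that allele nor any treatment, and heterozygous is written het. The 4 groups, LA wt, LA het, RA wt and RA het, held 5 arrays each, from 5 wild-type and 5 heterozygous mice.

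Hepcidin is a small peptide hormone made mainly by the liver, which binds the iron exporter ferroportin on the cell surface and causes its removal, so that cells keep their iron and less iron enters the blood. In liver its gene is driven by BMP and SMAD signalling and by interleukin-6 through STAT3, with HFE acting upstream and the protease TMPRSS6 as an inhibitor. The heart makes hepcidin too, and in mice cardiac hepcidin acts on the ferroportin of the muscle cells themselves. Iron enters cells as transferrin through the transferrin receptor (Tfrc) or as ferritin through the scavenger receptor Scara5, is moved across membranes by the transporter DMT1 (Slc11a2), is stored in ferritin (heavy chain Fth1) and leaves through ferroportin (Slc40a1).

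Mice have 2 hepcidin genes, Hamp and Hamp2, which lie near each other on chromosome 7, with 1 annotated gene between them. Hamp encodes the iron hormone, whereas its copy Hamp2 did not cause the iron deficiency of Hamp when overexpressed in transgenic mice. Their upstream sequences are shown because both genes differed between the sides and because their regulatory elements can be compared letter by letter. The windows are the 250 bases before each gene's start, from RefSeq on GRCm38.p6, at chr7:30944030-30944279 for Hamp and chr7:30924182-30924431 for Hamp2, both on the minus strand and written 5′ to 3′. Capitals mark matches on either strand to GGCGCC (the BMP response element), TTCNNNGAA (the STAT site) and TGAGTCA (the AP-1 site).
Hamp: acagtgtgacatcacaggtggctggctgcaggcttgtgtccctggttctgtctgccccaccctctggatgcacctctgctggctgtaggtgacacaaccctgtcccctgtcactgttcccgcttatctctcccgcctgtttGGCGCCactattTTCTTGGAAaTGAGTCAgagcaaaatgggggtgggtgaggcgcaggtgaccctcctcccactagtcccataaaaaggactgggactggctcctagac
Hamp2: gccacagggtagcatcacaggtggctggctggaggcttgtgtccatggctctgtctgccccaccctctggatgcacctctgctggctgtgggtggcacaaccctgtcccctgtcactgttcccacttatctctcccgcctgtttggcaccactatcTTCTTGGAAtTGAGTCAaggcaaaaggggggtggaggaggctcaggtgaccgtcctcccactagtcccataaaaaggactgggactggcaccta

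Of 247 aligned bases, 227 (91.9%) were identical. In Hamp the BMP response element lay at -109 to -104 from the start, the STAT site at -97 to -89 and the AP-1 site at -87 to -81, with no overlap. In Hamp2 the STAT site lay at -94 to -86 and the AP-1 site at -84 to -78. Hamp2 had no GGCGCC in the window, and at the aligned place it carried the substitution G4A, with positions counted from 1 at the first base of GGCGCC and the base of Hamp given first. Among 32851 windows of the same length, 9.59% held GGCGCC, 7.02% TTCNNNGAA and 4.46% TGAGTCA. Of the other members in the promoter table, Tfrc held GGCGCC in 1 of its 2 windows, at -89 to -84, and Hfe held TGAGTCA on the reverse strand at -67 to -61. Neither Fth1 window held any of these motifs. Scara5, Slc40a1, Tmprss6 and Slc11a2 were not among the entries used here.

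Values below are the deposited signals on a linear scale, and differences are on the log2 scale after background correction with an offset of 16, which understates differences of dim probes. A probe was called at a limma adjusted p under 0.05 over 20097 tested probes. Each array detected 17316 to 19422 probes. Whole appendages were measured, so fewer cells of a type and less RNA per cell cannot be told apart, and the labels do not say which left and right arrays share a mouse. Bmp10, a growth factor gene of the right atrium, checked the side labels: its signals were between 271.2 and 3067.7 on the RA arrays, and it was not detected on 9 of 10 LA arrays. LA het replicate 2 stood apart, with a Bmp10 signal of 144.7. Limma values without this array are given below where it held a high or low level of a member. Without it the log2 side difference of the 11 uncalled member probes in heterozygous mice moved by -0.17 to 0.08, and 0 of them passed. The defining markers of atrial muscle were present on every array, with a summed signal of 5 genes from 145739.5 to 171853 and 0 of 5 called between the sides in either genotype. The highest signal on every array was 38625.9, so this sum lay near the top of the scale, and how far changes would show there was not tested.

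Both hepcidin probes were far higher in the right atrium than in the left in both genotypes, and 1 of 2 Scara5 probes was far higher in the left. The iron exporter, the transferrin receptor, ferritin heavy chain, Hfe, Tmprss6 and Slc11a2 passed the test in no comparison. In wild-type mice 3 of 14 member probes (21.4%) were called between the sides, 2 higher in the right and 1 higher in the left, where 3.28% of all tested probes were called, 1.72% higher in the right and 1.57% higher in the left. In heterozygous mice the same 3 probes were called in the same directions, against a background of 2.61%, with 1.37% higher in the right and 1.24% higher in the left. The members were chosen with earlier results of these data known, so these shares are a description only. The Hamp and Hamp2 probes may also not be separate measurements. The median log2 difference of the member probes was -0.03 in wild type (all probes -0.01) and 0.01 in heterozygous mice (all probes 0.00).

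Hamp (ILMN_1236304) had signals of 954.6, 1043.8, 881, 2363.9 and 1669.1 in LA wt and of 12663, 17577.8, 17389.6, 14397.3 and 11949.3 in RA wt. In heterozygous mice the signals were 1924.7, 5310.8, 738.5, 1674 and 1058.7 in the left and 15124.9, 15540.2, 16443.5, 20016.4 and 15938.7 in the right. All 10 right atrial arrays lay above all 10 left atrial arrays, and on the log2 scale the left atria were more spread out. On the right atrial arrays 114 to 240 of 45281 probes were brighter than Hamp, and how far changes would show there was not tested. The mean log2 level was 10.34 ± 0.60 (SD, n = 5) in LA wt, 10.73 ± 1.07 in LA het, 13.84 ± 0.26 in RA wt and 14.01 ± 0.16 in RA het. The right atrium was 11.3-fold higher in wild type (95% interval 6.65 to 19.1), with a log2 difference of 3.49 (SE 0.36, limma adjusted p = 3.95e-06). In heterozygous mice it was 9.74-fold higher (5.75 to 16.5), with a log2 difference of 3.28 (SE 0.36, adjusted p = 1.26e-05).

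Hamp2 (ILMN_2852624) had signals of 180.7, 168.1, 96.7, 513.2 and 259 in LA wt and of 3190.6, 2868.9, 4333.4, 2119.3 and 1256.4 in RA wt. The heterozygous left atria had 184.3, 840.3, 80.9, 249.5 and 177.2, and the right 3383.4, 1493.2, 2499.4, 4324.3 and 3872.7. Here too no left atrial array reached the lowest right atrial array. The right atrium was 11.3-fold higher in wild type (5.63 to 22.7, log2 difference 3.50, SE 0.48, adjusted p = 0.00012) and 12.1-fold higher in heterozygous mice (6.01 to 24.3, log2 difference 3.59, SE 0.48, adjusted p = 0.000136). Probes of such similar genes can bind each other's RNA, and this was not tested, so the values of Hamp and Hamp2 may not be separate.

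**Figure D1:**
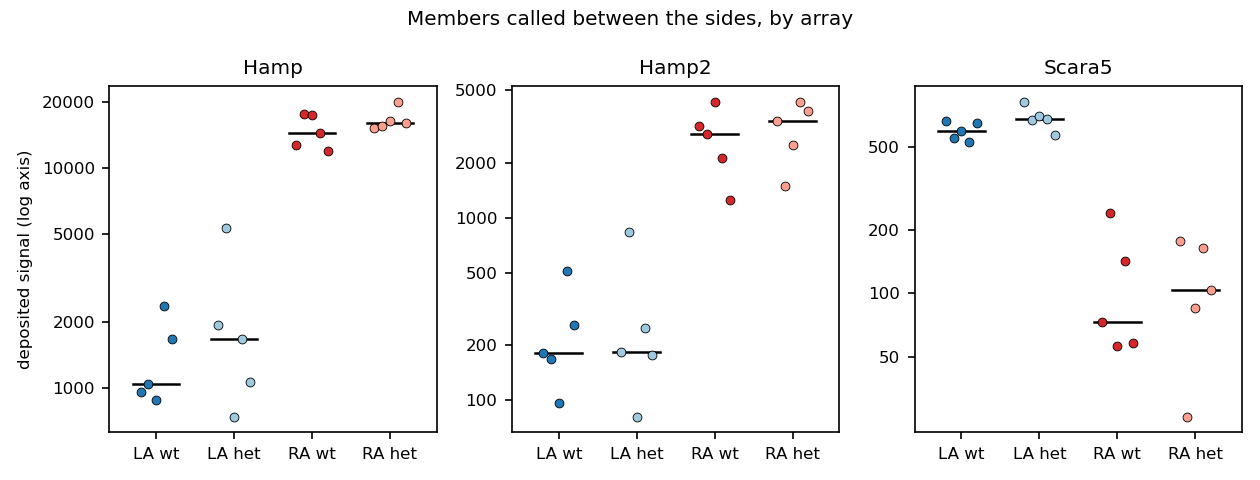
Deposited signals of Hamp, Hamp2 and Scara5 (ILMN_3008068) on a log axis, with 1 point per array. Groups of 5 arrays lie along the horizontal axis, with a line at each group's median. The right atrial points of Hamp (11949.3 to 20016.4) and Hamp2 (1256.4 to 4333.4) lie above every left atrial point, and those of Scara5 (25.8 to 243.1) lie below.

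LA het replicate 2 had the highest Hamp and Hamp2 signals of the 10 left atrial arrays, at 5310.8 and 840.3, and was the left atrial array with detected Bmp10. Without it, the heterozygous side difference was 3.70 on the log2 scale for Hamp (adjusted p = 1.28e-07) and 4.05 for Hamp2 (adjusted p = 6.99e-06). Its signal of Myl2, the ventricular myosin light chain, was also the highest of the left atrial arrays, at 3999.7 against 237.2 or less. LA wt replicate 4 was next for hepcidin, at 2363.9 for Hamp and 513.2 for Hamp2, while its Bmp10 signal of 6 was not above background. Among the 10 left atrial arrays the log2 levels of both probes moved together, with Pearson's r = 0.936 (permutation p = 6e-05, adjusted p = 0.00024 over 8 relations) and Spearman's rho = 0.915 (permutation p = 0.00061, adjusted p = 0.00163). Without the 2 arrays farthest from the median Hamp level, r was 0.826. Among the 10 right atrial arrays r was 0.612 (permutation p = 0.0601, adjusted p = 0.12) and rho 0.588 (permutation p = 0.0812, adjusted p = 0.162), and r fell to 0.167 without the 2 farthest arrays.

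**Figure D2:**
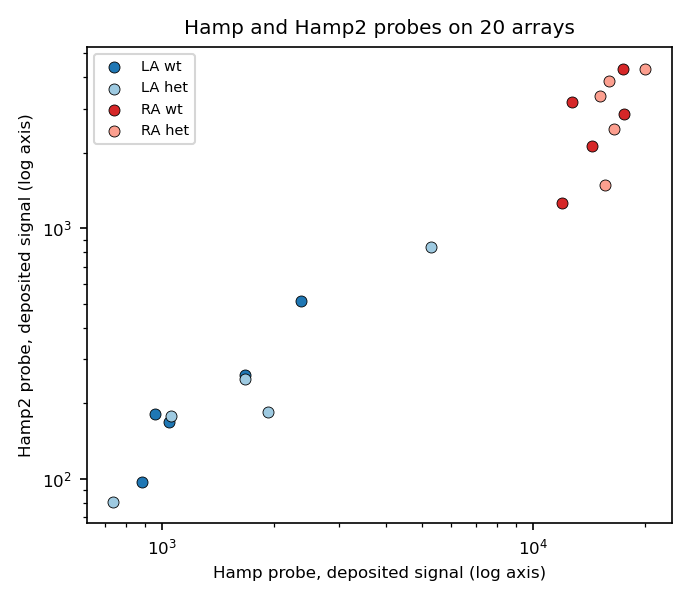
Deposited signal of the Hamp probe against that of the Hamp2 probe on 20 arrays, both on log axes, with groups by colour. Left atrial arrays spread along a line with r = 0.936 on the log2 scale, and LA het replicate 2, at 5310.8 for Hamp, is the left atrial array nearest to the right atrial cluster.

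Markers of other cells that make hepcidin or handle iron moved with the side in part. Of 8 hepatocyte genes on the array, 4, among them Alb and Apoa2, which encode the plasma proteins albumin and apolipoprotein A-II, were detected on 0 of 20 arrays. The summed hepatocyte signal was 613.4 to 1160.7 in LA wt, 687 to 1473.5 in LA het, 1472 to 1892.7 in RA wt and 1576.6 to 2294.7 in RA het. It came largely from Ahsg, the gene of the plasma glycoprotein fetuin-A, whose 2 probes were higher in the right atrium by 1.25 and 1.08 in wild type (adjusted p = 0.00464 and 0.00577) and by 0.94 and 0.98 in heterozygous mice (adjusted p = 0.0459 and 0.0173), on the log2 scale. The other tested hepatocyte genes, Ttr and Fgg, gave -0.23 and -0.29 in wild type and 0.03 and -0.04 in heterozygous mice, neither called. Counting a gene as called by any of its probes, 2.33% of all 11154 tested genes were called higher in the right and 2.15% higher in the left in wild type, and 1.87% and 1.71% in heterozygous mice. Of 10 macrophage genes, 7 were called higher in the right atrium in wild type, Csf1r, Adgre1, C1qa, C1qb, C1qc, Cd163 and Vsig4, by 0.58 to 4.82. Lyve1 (0.41), Mrc1 (-0.41) and Folr2 (-0.21) were not called in wild type. The summed signal of the 10 genes was 3937.5 to 4858.6 in LA wt and 4933.1 to 6901.8 in LA het. In the right it was 7555.1 to 9124.3 in RA wt and 6369.1 to 10231.4 in RA het. In heterozygous mice 1 macrophage gene, Vsig4, was called higher in the right and 1, Mrc1, higher in the left. Of 5 endothelial genes, 2 were called higher in the right in both genotypes, Eng by 0.59 and 0.56 and Vwf by 0.87 and 0.54. Pecam1, Cdh5 and Kdr were not called, at -0.10, 0.08 and 0.16 in wild type and -0.05, -0.18 and -0.09 in heterozygous mice. The summed signal of the endothelial list ran from 4327.8 to 5538.3 in the left and from 5696.6 to 7593.7 in the right. A sum weighs bright genes most, so it does not show that the list as a whole was higher in the right. Of 3 ventricular muscle genes 1, Myl2, was called higher in the right in wild type (log2 difference 5.61, adjusted p = 0.00789) and 0 in heterozygous mice, where Myl2 gave 3.22 (adjusted p = 0.204) and, without LA het replicate 2, 4.12 (adjusted p = 0.0631). Myl3 and Myh7 gave 0.25 and 0.08 in wild type and 0.22 and -0.36 in heterozygous mice. The summed signal of the ventricular list overlapped between the groups, from 2531.3 to 66891.2 over the 20 arrays. In heterozygous mice 1 Ahsg probe was no longer called without LA het replicate 2 (0.90, adjusted p = 0.0959) and the other was (0.94, adjusted p = 0.0428). The part of these cells in the hepcidin difference was not tested. With the levels of Myl2, Adipoq and Upk3b, genes of ventricular muscle, fat and epicardium, as covariates, the log2 side difference of Hamp was 2.87 in wild type (adjusted p = 0.00396) and 3.12 in heterozygous mice (adjusted p = 0.00103), and that of Hamp2 was 2.62 (adjusted p = 0.0452) and 3.13 (adjusted p = 0.00875). These covariates held no marker of hepatocytes, macrophages or endothelium, and Myl2 itself was called between the sides in wild type, so these values do not test the part of such cells.

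Scara5 (ILMN_3008068), the gene of a receptor that takes up ferritin, ran the opposite way. Its signals were 667, 552.6, 594.3, 529.4 and 650.1 in LA wt and 73.1, 243.1, 56.2, 142.4 and 58.1 in RA wt. In heterozygous mice they were 824.1, 677.2, 707.1, 680.5 and 573.6 in the left and 178.4, 25.8, 84.8, 164.2 and 104.2 in the right. Every left atrial array lay above every right atrial array, and here the right atria were the more spread out, with an SD of 0.80 in RA wt and 0.89 in RA het against 0.14 and 0.18 in the left, on the log2 scale. The left atrium was 5.36-fold higher in wild type (3.22 to 8.94), with a log2 difference, right minus left, of -2.42 (SE 0.35, limma adjusted p = 0.000219). In heterozygous mice it was 6.29-fold higher (3.78 to 10.5), with a difference of -2.65 (SE 0.35, adjusted p = 0.000121), and without LA het replicate 2 it was -2.66 (adjusted p = 0.000404).

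A second Scara5 probe, ILMN_2548435, did not show this. It was detected on 11 of 20 arrays, with signals between 2.6 and 39.7, and its log2 side difference was -0.17 in wild type (adjusted p = 0.848) and 0.34 in heterozygous mice (adjusted p = 0.481). The side difference of Scara5 therefore rests on 1 probe, and why the probes disagree was not tested. Scara5 is a gene of connective tissue cells in many organs, so fibroblast markers are given beside it. Of 11 tested fibroblast genes, 2 were called higher on the left in wild-type mice, Pi16 (-1.80) and Clec3b (-1.03). In heterozygous mice 3 were called higher in the left, Pi16 (-1.76), Cd248 (-1.02 and -0.96 by 2 probes) and Mfap5 (-0.79), and Dpt was called higher in the right (0.48), though not without LA het replicate 2 (0.47, adjusted p = 0.0549). Pdgfra, Col1a1, Col1a2, Dcn, Lum and Dpp4 were called in neither genotype. Their differences were -0.15, 0.15, 0.04, 0.20, -0.29 and -0.19 in wild type. In heterozygous mice they were -0.13, -0.41, 0.03, 0.09, -0.45 and 0.35. Dpt, Mfap5 and Cd248 (brighter probe) gave 0.22, -0.30 and -0.63 in wild type, and Clec3b -0.69 in heterozygous mice, none called. In each genotype 4 of the 11 genes lay above 0. Over all tested genes 2.15% were called higher in the left in wild type, and 1.71% in heterozygous mice. The summed signal of the list overlapped between all groups, from 33787.9 to 42590.9 over the 20 arrays, and its part in the Scara5 difference was not tested. With the same covariates (Myl2, Adipoq, Upk3b), none of them a fibroblast marker, the Scara5 difference was -3.56 in wild type (adjusted p = 2.4e-05) and -3.09 in heterozygous mice (adjusted p = 6.62e-05).

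Among the importers of transferrin iron and ferrous iron, no probe was called between the sides. Tfrc, the transferrin receptor, had signals from 396.4 to 945.7 by ILMN_2619848 and from 545.6 to 1317.2 by ILMN_2860804 over the 20 arrays, with all 4 groups overlapping. Its log2 side differences were 0.09 (95% interval -0.35 to 0.54) and 0.10 (-0.36 to 0.56) in wild type. In heterozygous mice they were -0.14 (-0.58 to 0.30) and 0.08 (-0.38 to 0.55). Both Tfrc probes followed each other closely among the arrays of a side, with r = 0.923 in the left (permutation p = 0.00031, adjusted p = 0.000827; rho 0.952) and 0.972 in the right (permutation p = 2e-05, adjusted p = 0.00016; rho 0.973), and r was 0.887 and 0.956 without the 2 farthest arrays. Arrays high by one Tfrc probe were thus high by the other.

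Slc11a2, the transporter of ferrous iron out of endosomes, had signals from 107.2 to 185.6 by ILMN_1243129 and from 60.9 to 183.7 by ILMN_2665063. By the first probe the side difference was -0.10 in wild type (-0.32 to 0.11) and -0.23 in heterozygous mice (-0.44 to -0.01), the latter with an adjusted p of 0.352 by limma. By the second it was -0.20 (-0.62 to 0.21) and 0.04 (-0.38 to 0.45), so the probes differed in sign in heterozygous mice. Their relation among arrays did not pass, with r = 0.502 in the left and 0.504 in the right (adjusted permutation p = 0.186 in both; rho 0.505 and 0.0788, adjusted p = 0.226 and 0.856), and without the 2 farthest arrays r was 0.25 and -0.541. The remaining Slc11a2 probe, ILMN_2578829, was detected on 0 of 20 arrays and not tested.

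Slc40a1 (ILMN_2747923) encodes ferroportin, the iron exporter that hepcidin removes. Its signals were 1611.2, 2071.2, 1712.3, 1411.9 and 1906 in LA wt and 1635, 1258.4, 997.8, 977.2 and 995.9 in RA wt. In heterozygous mice they were 779.8, 977.2, 1644.6, 1451.5 and 1467.8 in the left and 903.3, 1083.2, 376.6, 467 and 1320.8 in the right. By group mean the order was LA wt (log2 10.77 ± 0.21, SD, n = 5), LA het (10.27 ± 0.45), RA wt (10.19 ± 0.32) and RA het (9.57 ± 0.77), and each group overlapped its neighbours in that order. The right-minus-left difference was -0.58 in wild type (-1.17 to 0.01, limma adjusted p = 0.426) and -0.70 in heterozygous mice (-1.29 to -0.11, adjusted p = 0.272), so neither passed the test over all probes. Without LA het replicate 2 the latter was -0.77 (adjusted p = 0.262). The other Slc40a1 probe, ILMN_1238359, was detected on 0 arrays.

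Fth1, the heavy chain of ferritin, gave signals from 26717.7 to 34367 by ILMN_2876066 and from 26866.8 to 35342 by ILMN_2876071. The highest signal on every array was 38625.9, so both probes lay near the top of the scale, and how far larger changes would show there was not tested. Their side differences were -0.04 (-0.21 to 0.13) and 0.07 (-0.10 to 0.24) in wild type and -0.04 (-0.21 to 0.13) and 0.04 (-0.13 to 0.21) in heterozygous mice. No relation between the probes was detected among arrays, with r = 0.0603 in the left and -0.264 in the right (permutation p = 0.87 and 0.455, adjusted p = 0.87 and 0.52; rho 0.0673 and -0.136, adjusted p = 0.856 in both); without the 2 farthest arrays r was -0.127 and 0.668. Copies of the ferritin gene elsewhere in the genome could share these probes, so the values are uncertain as those of Fth1 alone.

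Hfe and Tmprss6, which act upstream of hepcidin in liver, did not pass the test. Hfe, an MHC class I-like protein that acts on hepcidin in liver, had signals from 229.9 to 404.8 by ILMN_2870696, and its side difference was 0.02 in wild type (-0.22 to 0.26) and -0.09 in heterozygous mice (-0.33 to 0.15). A dim Hfe probe, ILMN_2592519, was detected on 13 of 20 arrays and gave -0.03 and -0.02. Tmprss6, the liver protease that cuts hemojuvelin, was detected on 8 of 20 arrays by ILMN_2469310, with signals up to 27.4, and on 0 by ILMN_1227763. Its side difference by the tested probe was -0.10 in wild type (-0.42 to 0.22) and 0.22 in heterozygous mice (-0.10 to 0.55), at signals close to background.

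**Figure D3:**
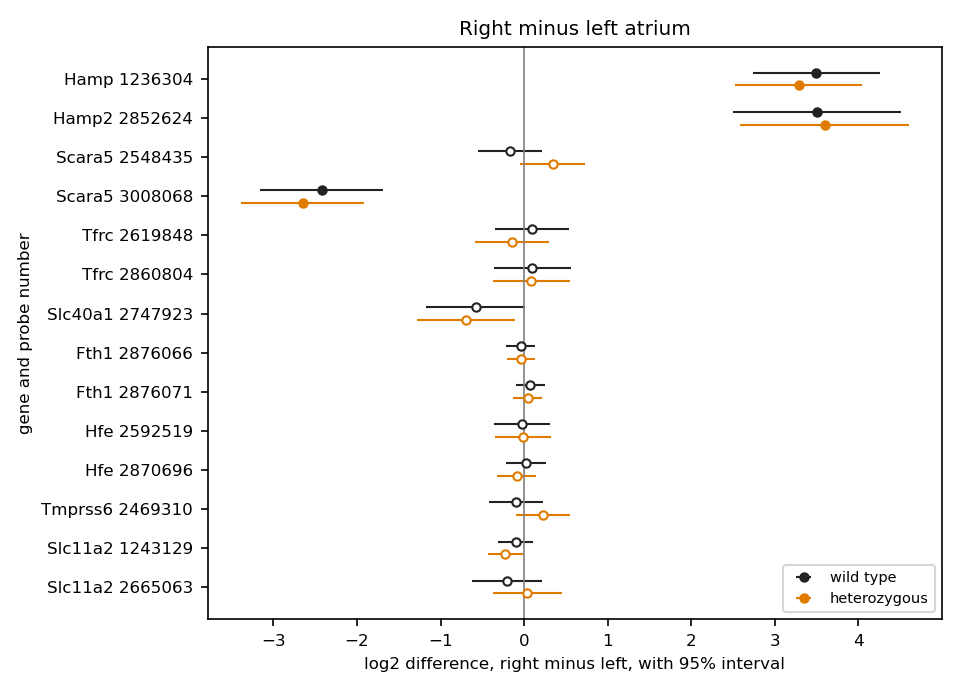
Log2 difference between right and left atrium for the 14 tested member probes in wild-type and heterozygous mice, with 95% intervals from limma; filled points were called and open points were not. The Hamp and Hamp2 points lie between 3.28 and 3.59, 1 Scara5 probe lies at -2.42 and -2.65, and the other probes lie between -0.70 and 0.34.

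**Figure D4:**
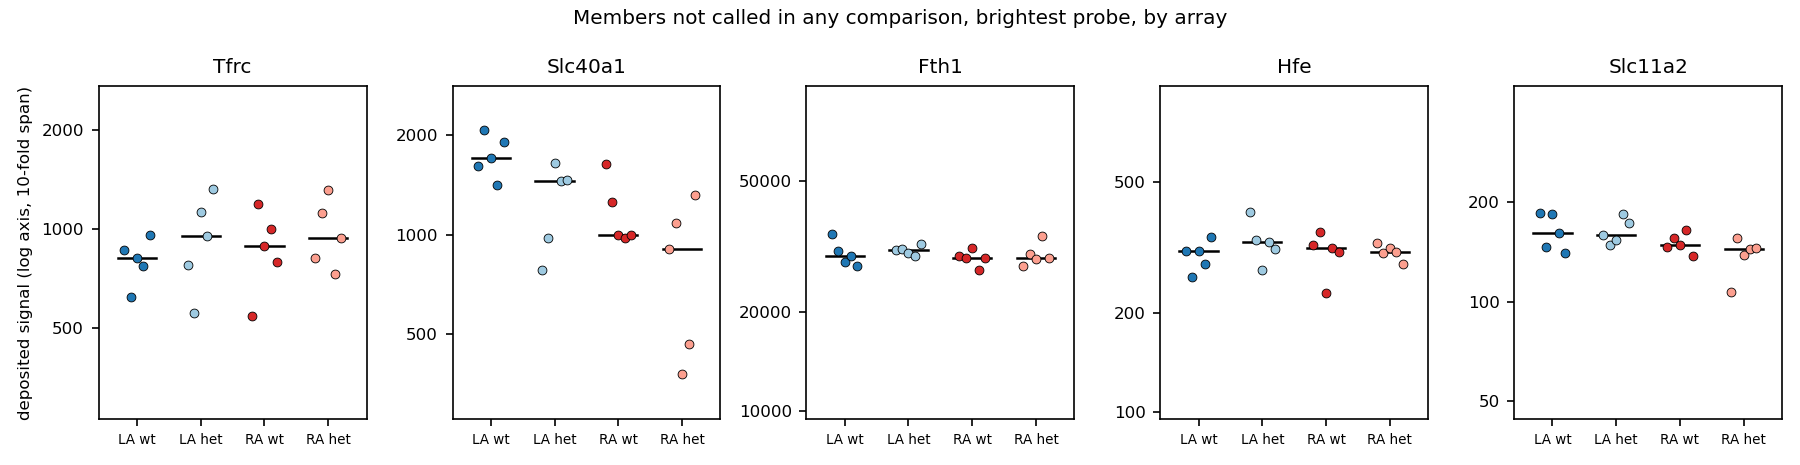
Deposited signals of the brightest probe of Tfrc, Slc40a1, Fth1, Hfe and Slc11a2 by array on log axes of equal span, with a line at each group's median. The groups of Tfrc, Fth1, Hfe and Slc11a2 overlap widely, and the medians of Slc40a1 run from 1712.3 in LA wt to 903.3 in RA het.

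The genotypes were compared within each atrium to see whether heterozygosity shifted these genes. None of the 14 member probes was called. Over all probes 0.00498% were called in the left atrium and 0.00995% in the right. In each atrium 1 member probe (7.14%) had an unadjusted p under 0.05 in the limma fit, against 4.66% of all probes in the left and 5.41% in the right, a share near the background. The median member difference, heterozygous minus wild type, was 0.03 in the left and 0.04 in the right, against 0.00 over all probes in both. For Hamp the difference was 0.39 in the left (-0.37 to 1.15, adjusted p = 1.00) and 0.18 in the right (-0.58 to 0.94, adjusted p = 0.934). Without LA het replicate 2 the left atrial value was -0.02 for Hamp and -0.35 for Hamp2 (adjusted p = 1.00 for both). With all arrays Hamp2 gave 0.10 (-0.90 to 1.11) and 0.20 (-0.81 to 1.21), and the bright Scara5 probe 0.20 (-0.53 to 0.94) and -0.03 (-0.76 to 0.71). The missed threshold does not show that the genotypes were alike, since the intervals of Hamp and Hamp2 reach 1.15 and 1.11 log2 units in the left atrium.

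The members with an unadjusted p under 0.05 between the genotypes were Slc40a1 and Slc11a2. Ferroportin (Slc40a1) was lower in heterozygous mice by group mean in both atria, by -0.50 in the left (-1.09 to 0.09, adjusted p = 1.00) and -0.61 in the right (-1.20 to -0.02, limma adjusted p = 0.830). Its 2 lowest left atrial arrays, LA het replicates 1 and 2 at 779.8 and 977.2, belonged to the 4 arrays with a signal of Ucp1, a brown fat gene, over 100. Also among the 4 were LA het replicate 4, with the highest Ucp1 (906.6) and 1451.5 for Slc40a1, and RA het replicate 1, with 903.3 for Slc40a1. The lowest Slc40a1 signals of the 20 arrays, 376.6 and 467 in RA het replicates 3 and 4, came with Ucp1 signals of -6.1 and -0.5. With those covariates (Myl2, Adipoq, Upk3b) the left atrial difference of Slc40a1 was 0.00 and the right -0.51, and without the arrays with Ucp1 over 100 they were -0.15 and -0.68. Without LA het replicate 2 alone the left atrial value was -0.42. The part of fat in the Slc40a1 values was not tested. The Slc11a2 probe ILMN_2665063 was lower in LA het by -0.46 (-0.87 to -0.04, limma adjusted p = 1.00), while ILMN_1243129 gave 0.00 (-0.21 to 0.22). Tfrc gave 0.30 (-0.14 to 0.74) and 0.18 (-0.28 to 0.64) in the left and 0.07 (-0.38 to 0.51) and 0.17 (-0.30 to 0.63) in the right.

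**Figure D5:**
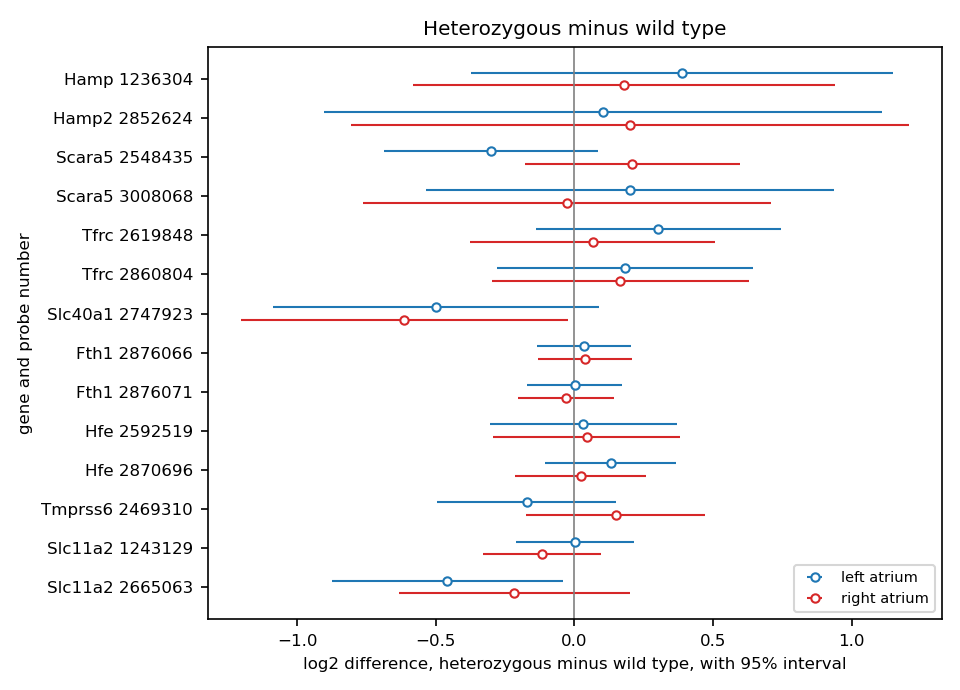
Log2 difference between heterozygous and wild-type mice for the 14 tested member probes in each atrium, with 95% intervals from limma; open points were not called. All points are open and lie between -0.61 and 0.39, and the intervals of Slc40a1 in the right atrium and of 1 Slc11a2 probe in the left do not reach 0.

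Whether the side difference itself depended on genotype was tested as the difference of the differences. No member passed (0 of 14), where 0.00995% of all probes were called by limma. At an unadjusted p under 0.05 there were 0 members, against 2.95% of all probes, and the member median was -0.02 (all probes 0.00). For Hamp it was -0.21 (-1.29 to 0.87), for Hamp2 0.09 (-1.33 to 1.52), for the bright Scara5 probe -0.23 (-1.27 to 0.81) and for Slc40a1 -0.11 (-0.95 to 0.72), all with a limma adjusted p of 0.999. Without LA het replicate 2 the values of Hamp and Hamp2 were 0.20 and 0.55, of Scara5 -0.23 and of Slc40a1 -0.19, each with an adjusted p of 0.999. The side differences of Hamp, Hamp2 and the bright Scara5 probe were thus large in both genotypes. No change between the genotypes was detected with 5 arrays per group, but the intervals are wide and do not show that the genotypes were alike.

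Other genes of iron metabolism, 55 of them with a tested probe, were set beside the members. Over all tested genes 4.47% were called between the sides in wild type and 3.59% in heterozygous mice by the same rule. Of the 55, 4 were called higher in the right atrium and 1 higher in the left in wild-type mice, with a median log2 difference of 0.01 over all 55, and 2 higher in the right and 1 higher in the left in heterozygous mice, with a median of -0.03, the same counts as without LA het replicate 2. The lists were chosen with earlier results of these data known, so how the calls fell among them is a description only. Of the 10 tested regulators of hepcidin, 3 were called in wild type and 2 in heterozygous mice. Of 16 genes of uptake and release, 1 was called in wild type and 0 in heterozygous mice. Among 10 genes of mitochondrial iron and iron-sulphur clusters 1 was called in each genotype, and no call fell among 12 genes of haem synthesis and breakdown, 4 of storage and 3 of iron sensing.

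Il6, the cytokine that raises hepcidin in liver during inflammation, was dim and higher in the right atrium. Its signals ran from 42.4 to 64 in RA wt and from 30.7 to 54.2 in RA het, with detection on all 10 arrays. In LA wt they ran from 5.4 to 19.3, detected on 2 of 5 arrays, so that its fold there depends on the offset, and in LA het it was detected on 0 of 5. The log2 difference in wild type was 1.13 (SE 0.13, adjusted p = 1.7e-05), and in heterozygous mice the right atrium was at least 1.74-fold higher (adjusted p = 1.41e-05), taken against the lowest detected signal on each left atrial array. Acvr1, a type I BMP receptor that takes part in hepcidin control in liver, was higher in the right by 0.38 in wild type (SE 0.09, adjusted p = 0.0232) and 0.47 in heterozygous mice (adjusted p = 0.00688). Furin, a protease that processes hepcidin and hemojuvelin, was called in wild type by 1 probe (0.37, adjusted p = 0.0415) and not by the other (0.29, adjusted p = 0.31). Bmp6, the main BMP ligand for hepcidin in liver, differed by -0.13 in wild type (adjusted p = 0.92) and -0.07 in heterozygous mice (adjusted p = 0.935), and Hjv, the BMP coreceptor hemojuvelin, by 0.12 (adjusted p = 0.959) and -0.18 (adjusted p = 0.858) by its brighter probe.

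Cd163, the haemoglobin scavenger receptor of macrophages, was higher on the right in wild-type mice by 0.65 (SE 0.11, adjusted p = 0.00106) by its brighter probe, while the other gave 0.40 (adjusted p = 0.465). In heterozygous mice the brighter probe gave 0.24 (adjusted p = 0.348), and the difference between the genotypes, -0.40, did not pass (adjusted p = 0.999). Nfs1, the cysteine desulfurase that supplies sulphur for iron-sulphur clusters, was called lower in the right by 1 of 4 probes, at -0.33 in wild type (SE 0.08, adjusted p = 0.0234) and -0.34 in heterozygous mice (adjusted p = 0.0261). Of its other probes, 2 gave -0.34 and -0.23 in wild type and -0.31 and -0.23 in heterozygous mice, and 1 gave 0.05 and 0.06, none called. Between the genotypes 0 of 55 genes were called in either atrium, against 0.00897% of all tested genes in the left and 0% in the right. The smallest p-values in the left belonged to Slc46a1 (0.48), Cd163 (0.37) and Bmp6 (-0.48), with adjusted p from 0.963 to 1.00, and in the right to Abcb10 (-0.43), Bmpr1a (-0.25) and Steap3 (0.29), each with an adjusted p of 0.830. The difference of differences called 0 of 55 as well (0% of all tested genes), with the smallest p-values for Cd163, Abcb10 (-0.65) and Cybrd1 (0.45).

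Erythroid markers, which bear on iron genes through blood left in the tissue, were not called between the sides in either genotype (0 of 4 tested genes). Over all tested genes 4.47% were called in wild type and 3.59% in heterozygous mice. Hbb-b2, Hba-a1, Alas2 and Slc4a1 gave -0.15, -0.20, -0.11 and 0.15 in wild type (SE 1.30, 0.40, 0.55 and 0.48). In heterozygous mice they gave 0.22, 0.07, 0.12 and 0.08. With such SEs the missed threshold does not show that blood was alike between the sides. The summed erythroid signal overlapped between the groups, from 6106.5 to 38612.6 over the 20 arrays.

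The named genes whose log2 levels over the 20 arrays were most like Hamp were Dbh (r = 0.965), Ptgds (0.962), Adm (0.959), Cd207 (0.955) and Fxyd3 (0.951). Dbh encodes dopamine beta-hydroxylase, Ptgds prostaglandin D synthase, Adm the peptide adrenomedullin and Cd207 langerin. All 5 were higher in the right atrium, by 2.45 to 5.51 in wild type on the log2 scale, and after the group means were removed r fell to between 0.489 and 0.695. The genes most like Scara5 were 2310002L09Rik (r = 0.95), Ccl21c (0.95), Slco2b1 (0.949), Vtn (0.948), which encodes vitronectin, and LOC100041504 (0.947). These were higher in the left atrium, with right-minus-left differences from -3.74 to -1.77 in wild type, and r of the deviations was 0.661 to 0.895. These correlations describe arrays that share the side difference, and no test was attached to them. They were not computed without LA het replicate 2, which had the highest Hamp signal of the left atrial arrays.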

How the data were processed

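Total RNA of 20 atrial appendages was measured on Illumina bead arrays from biotin-labelled cRNA, per the labels' protocols. The deposited table holds an intensity per probe and array on a linear scale, and a detection column, which was read as a score of 1 minus the detection p. How the authors read the arrays, corrected background and normalized is stated in none of the sources used here (not given). Between 33.7% and 33.9% of each array's deposited intensity values lie below 0 and the sorted values of the arrays differ by at most 1.8, so a background had been subtracted and the arrays quantile-normalized. A second deposited table was identical (largest difference 0). Of the probes, 34885 had 1 symbol in the platform annotation, 18 several and 10378 none here.

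From these values, neqc of limma 3.58.1 in R 4.3.3 gave log2 levels (normexp from the detection p, offset 16, quantile). This is a second correction, and alternatives without it were run. Testing was limited to the 20097 probes that 5 or more arrays detected (p under 0.05). lmFit and eBayes fitted 4 group means to 20 arrays, without covariates, and p-values were adjusted by Benjamini-Hochberg over all tested probes for each of 5 contrasts. The number of arrays limits the precision. The code was tested on simulated data.

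The targeted gene is not reported here. The members and gene lists were chosen with earlier results of these data known. Named were every member probe, every list gene called between the sides (any tested probe), the 3 of smallest p where fewer than 3 were called, the 5 genes most like Hamp and Scara5, and genes a member result turns on. Hjv and the named cell type markers were added after their values were seen. Promoter windows came from RefSeq (GRCm38.p6). Replicate numbers were not used as pairs: deviations of same-numbered arrays correlated between -0.42 and 0.349. Alternatives covered the background correction, offset, filter, array weights, arrays in the fit, covariates, the replicate number as a block and each array left out.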

Additional observations from a re-analysis of the deposited data

How the results depend on the processing

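Under up to 33 alternatives each, 70 member differences were followed. The 6 called differences kept their direction and stayed past the threshold in all 33, and the 64 others passed in none of those run, although 35 of these changed sign in some alternative. The log2 side difference ran from 2.87 to 3.71 in wild type and from 2.99 to 4.23 in heterozygous mice for Hamp, from 2.62 to 3.81 and from 3.13 to 4.37 for Hamp2, and from -3.56 to -2.09 and from -3.09 to -2.29 for Scara5 (ILMN_3008068). The highest adjusted p, 0.0452, was that of Hamp2 in wild type with covariates (levels of Myl2, Adipoq and Upk3b). The fit of only the 2 groups compared was not run for the difference of differences. With detection p under 0.01 on at least 10 arrays, the dim probes of Scara5, Hfe and Tmprss6 were not tested.

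The number of called member probes was 3 in each side comparison and 0 in the others under every alternative run. Over all probes, 660 were called between the sides in wild type, 1001 with array weights and 351 with the covariates. In heterozygous mice 524 were called, 322 with only the groups compared, 250 without the arrays with Ucp1 over 100, 207 with the covariates and 337 with the replicate block. Between the genotypes in the left atrium 1 was called, and 0 to 5 under the alternatives. The replicate block is no more than a shared number: among the 5 arrays of a group, 1 or 2 correlated best with their own number. With the replicate block Hamp2 gave 3.50 in wild type (adjusted p = 0.00488) and 3.59 in heterozygous mice (adjusted p = 0.00573), and no member call changed. Dim probes of Scara5, Hfe and Tmprss6, detected on 8 to 13 of 20 arrays, limit what could be seen of these genes.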
